A study of Homo sapiens with 6 samples.

Results

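The SLC25 genes encode the mitochondrial carriers, the largest family of human solute carriers, and were taken as every row of the deposited tables whose gene symbol starts with SLC25A and a digit. There were 48 such rows among 17534, standing for 47 genes, because SLC25A6 had a pair of rows (SLC25A6 and SLC25A6-2) with the same Entrez ID. They were compared between NCI-H1703 cells, a human lung cancer line, in which a short hairpin RNA (shRNA) targets the PP2C-family phosphatase gene PPM1G, labelled Sh-PPM1G (3 libraries), and control cells labelled Sh-NC (3 libraries). The series title instead calls the control cells wild type. Neither labels nor design text give the hairpin sequence or the number of clones or pools behind each group, and no age, drug or other agent is labelled for either group.

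Mitochondrial carriers are small proteins that sit mostly in the inner mitochondrial membrane and are built from repeated pairs of transmembrane helices. Each exchanges or imports a defined set of solutes, such as ADP for ATP, phosphate, citrate, malate, amino acids, coenzymes, acylcarnitines or iron, between the cytosol and the matrix. They are made in the cytosol, cross the outer membrane through the TOM complex, are escorted by small TIM chaperones and are inserted by the TIM22 complex. In tumour cells they are studied because they link glycolysis, the citrate cycle, respiration and the export of citrate and aspartate for biosynthesis.

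The libraries held 31337553 to 35838246 counts. PPM1G itself had 84.9, 91.0 and 88.2 FPKM in the PPM1G shRNA libraries and 145, 135 and 141 FPKM in the control libraries, a fall of 0.77 on the log2 scale (SE 0.03, edgeR adjusted p = 3.3e-20). FPKM is the authors' level per gene length and library total. The label describes a squamous lung carcinoma line, but of the 6 squamous markers analysed only SOX2 exceeded 1 FPKM (4.39 FPKM in PPM1G shRNA and 8.75 FPKM in control libraries). TP63, the defining squamous factor, averaged 0.122 FPKM in PPM1G shRNA and 0.211 FPKM in control libraries, and the keratins KRT6A and KRT14 were under 0.1 FPKM. Of the 4 lung adenocarcinoma markers, NKX2-1 averaged 52.6 FPKM in PPM1G shRNA and 46.1 FPKM in control libraries, and NAPSA 14.8 FPKM in PPM1G shRNA and 1.37 FPKM in control libraries. The other markers of that list were near or at 0: SFTPB averaged 0.013 FPKM in PPM1G shRNA and 0.012 FPKM in control libraries, and SFTPC had 0 FPKM in both. All 7 leukocyte and 4 endothelial markers were under 1 FPKM. The summed squamous markers ranged from 4.29 to 4.80 FPKM in PPM1G shRNA and from 8.54 to 9.71 FPKM in control libraries, and their part in the results below was not tested.

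Of the 48 rows, 41 passed the filter on low counts and were tested. The remaining 7 rows (SLC25A2, SLC25A6, SLC25A18, SLC25A34, SLC25A47, SLC25A48 and SLC25A52) had at most 6 counts in any library. SLC25A6 had 0 counts in each PPM1G shRNA library and 6, 3 and 4 counts in the control libraries, and SLC25A18, a glutamate carrier gene, had 5, 3 and 2 counts in the PPM1G shRNA libraries and 0 in each control library. In edgeR's quasi-likelihood test at an adjusted p under 0.05, 15 carriers rose (36.6% of those tested), against 41.5% of all genes. There were 19 falls (46.3%), against 41.3% of all genes, so the share of carriers called in either direction was 82.9%, the same as the 82.9% over all genes. The libraries of the groups were apart, in TMM-scaled counts, for 34 of the 41 carriers (82.9%), against 83.7% of all genes tested. PPM1G shRNA was higher in 15 of them, against 41.9% of all genes, and lower in 19, against 41.8%. The family therefore stood at the background in how many members were called. In such bulk libraries, fewer cells expressing a gene and less RNA per cell cannot be told apart.

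The sizes of the changes were mostly small. The median absolute log2 fold change was 0.36 over the 41 carriers and 0.54 over all genes tested, and the median signed value was -0.08 over the carriers and 0.01 over all genes. Of the called carriers, 22 changed by less than 1.5-fold (53.7% of those tested, against 37.3% of all genes). At least 2-fold rises numbered 2 (4.88%, against 11.8% of all genes), and at least 2-fold falls numbered 4 (9.76%, against 12.4%), together 6 (14.6%, against 24.2%). The falls were those of the dicarboxylate carrier gene SLC25A10, the ADP/ATP translocase genes SLC25A4 and SLC25A5, and SLC25A53, and the rises were those of SLC25A45 and SLC25A41. SLC25A53 and SLC25A41 were expressed at low levels. Members therefore moved in both directions and, apart from these 6, by less than 2-fold.

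**Figure D1:**
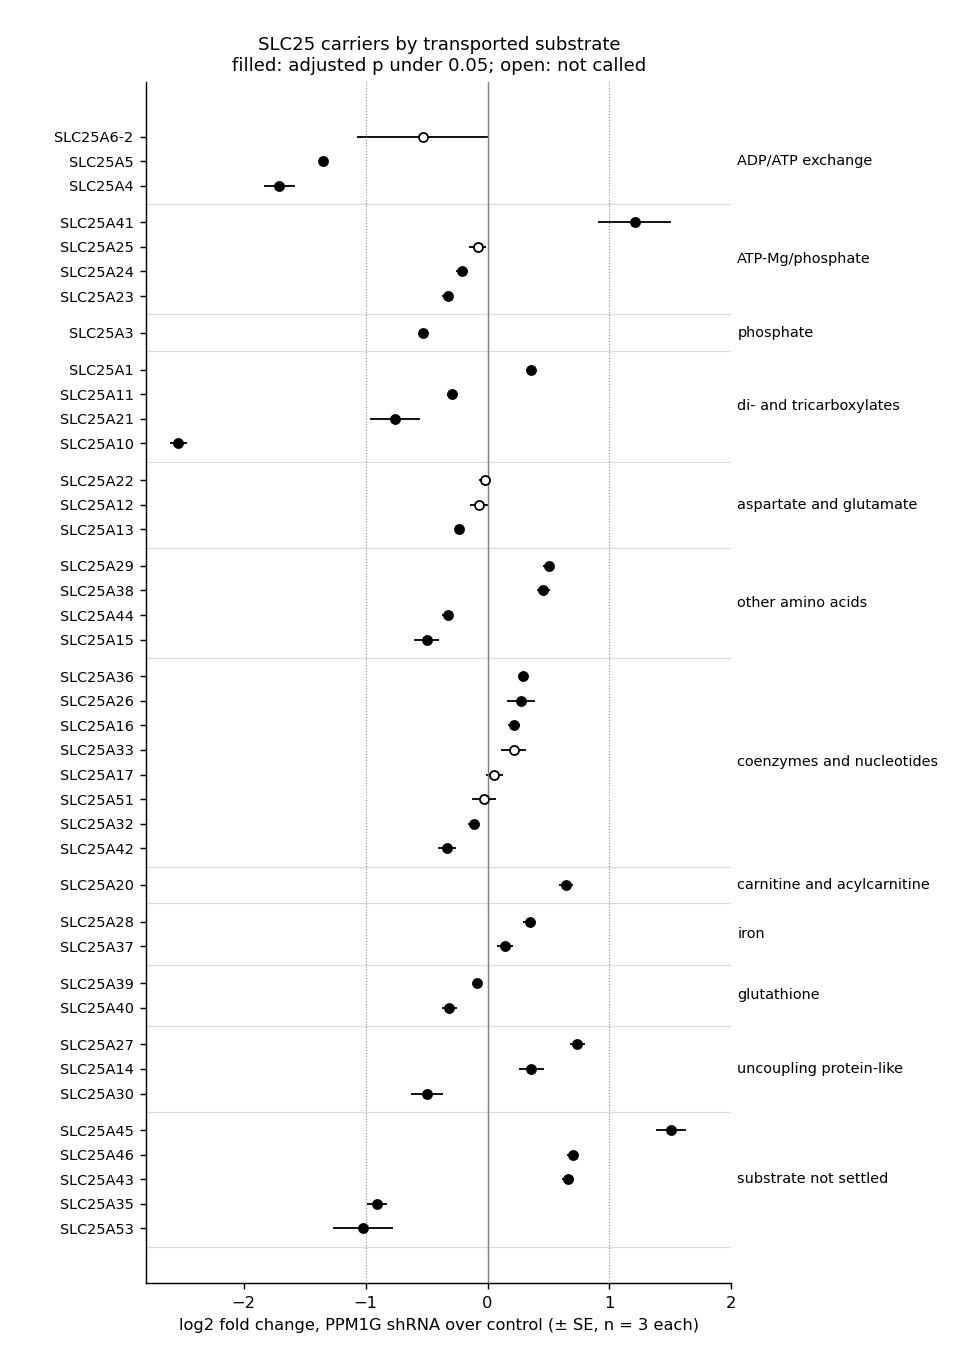
Log2 fold change of 40 of the 41 tested carriers (PPM1G shRNA over control, edgeR, ± SE, n = 3 libraries each), grouped by transported substrate. Filled points were called at an adjusted p under 0.05 and dotted lines mark 2-fold; SLC25A10 lies lowest at -2.54 and SLC25A45 highest at 1.51, and most points lie inside the dotted lines.

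The order of levels changed at its top. In the PPM1G shRNA libraries SLC25A39, a carrier needed for mitochondrial glutathione import, stood first at 128.8 ± 2.2 FPKM, followed by SLC25A5 at 106.8 ± 2.9 FPKM (SD, n = 3). In the control libraries SLC25A5 stood first at 253.7 ± 7.1 FPKM, ahead of SLC25A39 at 127.7 ± 5.3 FPKM (SD, n = 3). The libraries of these 2 genes did not overlap within either group. SLC25A1, SLC25A13, SLC25A3 and SLC25A11 followed in the PPM1G shRNA libraries between 54.9 and 36.6 FPKM, where SLC25A1 and SLC25A13 overlapped. In the control libraries the same 4 genes lay between 57.4 and 39.96 FPKM, and neither SLC25A13 and SLC25A3 nor SLC25A11 and SLC25A1 were apart. SLC25A5 made up 14.9% of the summed carrier FPKM in the PPM1G shRNA libraries and 29.9% in the control libraries.

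The summed level of all 48 rows was 718 ± 3.8 FPKM in PPM1G shRNA and 847 ± 12 FPKM in control libraries (SD, n = 3). Without SLC25A5 the sums were 611 ± 4.6 FPKM in PPM1G shRNA and 594 ± 5.0 FPKM in control libraries, a ratio of 1.03. Scaling by TMM factors in place of the plain totals behind FPKM turned that ratio to 0.960, while for the whole family it gave 0.790 in place of 0.847. The fall of the family sum thus went with SLC25A5, and the direction of the remainder depended on the scaling.

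**Figure D2:**
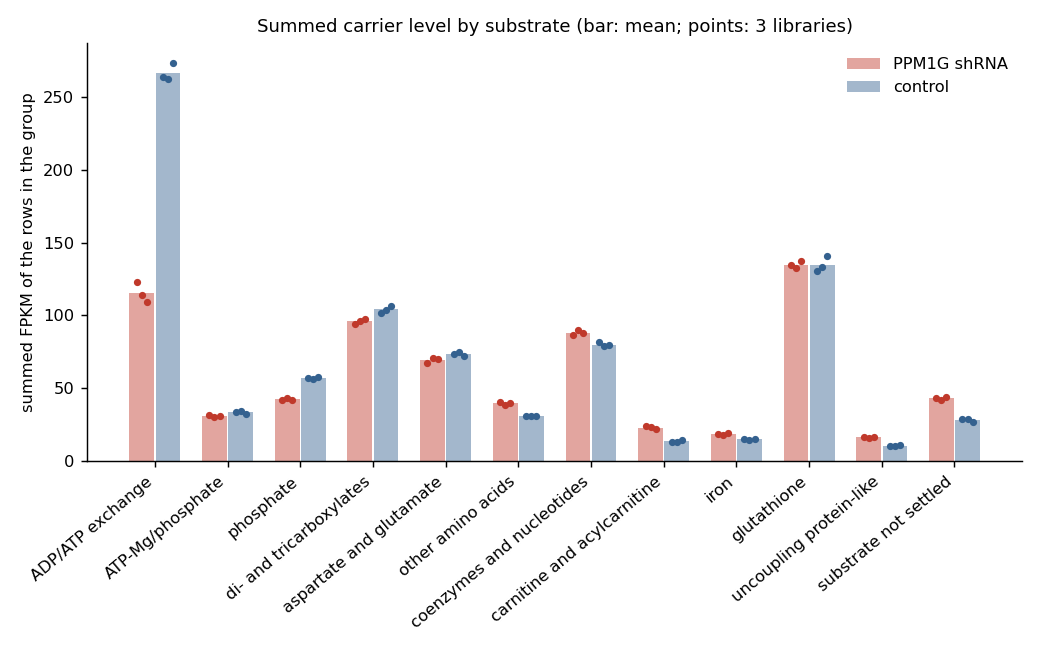
Summed FPKM of the carrier rows of each substrate group; bars are means and points the 3 libraries of each group. The ADP/ATP exchange sum is 115 FPKM in PPM1G shRNA and 266 FPKM in control libraries, and the other sums differ less.

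Carriers of adenine nucleotides and phosphate supply the ATP synthase with its substrates and export its product. SLC25A5 encodes ADP/ATP translocase 2, the form typical of dividing cells. Its level was 108, 109 and 104 FPKM in PPM1G shRNA libraries 1 to 3 and 248, 251 and 262 FPKM in control libraries 1 to 3. The 6 values formed separate groups, and SLC25A5 fell by 1.35 on the log2 scale (SE 0.03, adjusted p = 2.7e-27), to 0.393 of its control level. SLC25A4, translocase 1 of heart and muscle, had 0.694, 0.571 and 0.689 FPKM in PPM1G shRNA and 1.93, 2.06 and 1.97 FPKM in control libraries. Its libraries were likewise apart, and it fell by 1.71 (SE 0.13, adjusted p = 1.0e-13). The row SLC25A6-2, translocase 3, was not called (log2 fold change -0.53 ± 0.54 SE, adjusted p = 0.41). It had 642, 244 and 258 counts in PPM1G shRNA and 667, 466 and 502 counts in control libraries. In FPKM, PPM1G shRNA library 1 (14.1) lay above the control libraries (12.9, 9.06 and 9.69). PPM1G shRNA libraries 2 and 3 (4.71 and 4.96 FPKM) lay below them. Without PPM1G shRNA library 1 the log2 fold change of SLC25A6-2 was -1.23 (edgeR adjusted p = 5.8e-08). SLC25A6 lies in the pseudoautosomal region shared by the sex chromosomes, where reads can match both copies, and RefSeq lists 9 pseudogenes named after SLC25A5 and 6 after SLC25A6. No source used here says how the authors' counting treated such reads.

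The sequences upstream of SLC25A5 and SLC25A4 are shown because these translocase genes fell together. They are the 250 bases before the RefSeq transcription start on GRCh38.p14 (chrX:119468194-119468443, plus strand; chr4:185143016-185143265, plus strand), written 5′ to 3′. Capitals mark the motifs searched, on both strands: the TATA box TATAAA, the CCAAT box CCAAT, the E-box CACGTG, the ATF4-type element TGATGNAA, and the E2F-type elements TTTCGCGC and TTTGGCGC. None of these is contained in another.
SLC25A5: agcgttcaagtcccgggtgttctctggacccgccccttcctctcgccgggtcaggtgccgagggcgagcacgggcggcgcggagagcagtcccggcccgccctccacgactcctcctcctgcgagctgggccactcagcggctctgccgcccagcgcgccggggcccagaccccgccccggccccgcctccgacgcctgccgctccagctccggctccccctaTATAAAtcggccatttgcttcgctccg
SLC25A4: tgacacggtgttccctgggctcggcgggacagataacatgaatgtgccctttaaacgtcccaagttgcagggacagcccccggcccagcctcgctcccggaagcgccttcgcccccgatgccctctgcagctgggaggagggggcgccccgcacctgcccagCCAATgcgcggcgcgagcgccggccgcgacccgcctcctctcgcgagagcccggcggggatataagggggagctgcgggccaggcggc
SLC25A5 has 1 TATAAA and no other searched motif, and SLC25A4 has 1 CCAAT. The GC content of the stretches is 73.6% for SLC25A5 and 71.6% for SLC25A4. At least 1 such stretch was at hand for 39 of the 47 carrier genes (50 stretches) and for 27305 genes in all. A gene was counted if any of its stretches held the motif. The 27305 genes were not limited to the 17534 genes of the deposited data. TATAAA was in 3 of the 39 carriers (7.69%) and in 13.0% of all genes, and CCAAT was in 20 carriers (51.3%) and in 37% of all genes. TGATGNAA was found in SLC25A11 alone among these carriers (3.89% of all genes), and the E2F-type elements in SLC25A14 alone (1.20% of all genes). These are matches of letters and not measured binding sites.

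SLC25A3, the carrier that brings phosphate into the matrix, had 41.8, 43.3 and 42.0 FPKM in PPM1G shRNA and 56.9, 56.5 and 58.0 FPKM in control libraries. The groups were apart and the fall was 0.53 on the log2 scale (SE 0.03, adjusted p = 1.7e-17). Carriers that exchange ATP-Mg for phosphate set the adenine nucleotide content of the matrix. Of the 4 tested, 2 fell and 1 rose, against 41.3% and 41.5% of all genes tested, and 1 was not called. SLC25A23, the most abundant of them, had 15.4, 14.9 and 14.96 FPKM in PPM1G shRNA and 17.7, 18.3 and 17.1 FPKM in control libraries, and fell by 0.33 (SE 0.04, adjusted p = 3.0e-08). SLC25A24 fell by 0.21 (SE 0.05), although its FPKM values overlapped and limma on log2 FPKM did not call it. SLC25A25 was not called (-0.08 ± 0.07 SE). SLC25A41, at low level, had 92, 82 and 83 counts in PPM1G shRNA and 17, 31 and 60 counts in control libraries and rose by 1.21 (SE 0.30, adjusted p = 0.00063), with a range from 0.87 without control library 1 to 1.79 without control library 3. The rise was thus under 2-fold without control library 1. Its RefSeq gene overlaps that of SLC25A23 on chromosome 19, so reads at the overlap may belong to either.

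**Figure D3:**
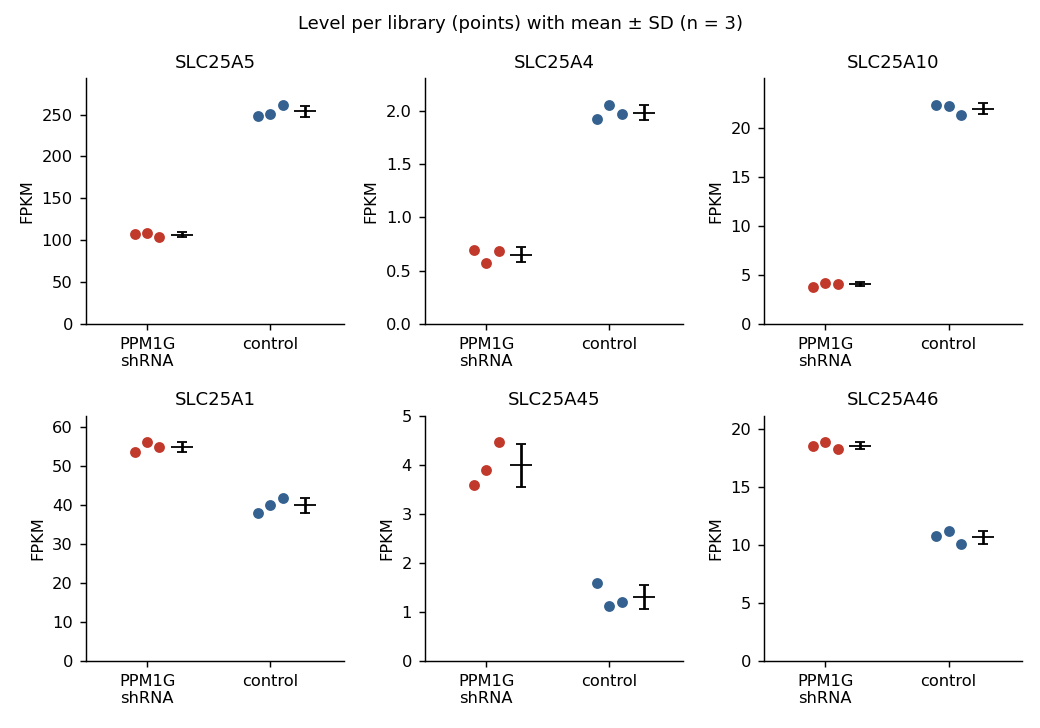
FPKM per library of 6 carriers, PPM1G shRNA libraries at left and control libraries at right, with mean ± SD (n = 3); every axis starts at 0. SLC25A5, SLC25A4 and SLC25A10 are lower in all PPM1G shRNA libraries than in any control library, and SLC25A1, SLC25A45 and SLC25A46 are higher in all of them.

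Carriers of di- and tricarboxylates connect the citrate cycle with the cytosol, and here they moved in opposite directions. SLC25A10, which exchanges malate or succinate for phosphate, had 3.81, 4.22 and 4.11 FPKM in PPM1G shRNA and 22.3, 22.2 and 21.3 FPKM in control libraries. The groups lay far apart, and the fall of 2.54 on the log2 scale (SE 0.07, adjusted p = 2.9e-26) left 0.172 of the control level, the largest change of any carrier tested. SLC25A1, the citrate carrier that exports citrate for lipid synthesis, had 53.7, 56.2 and 54.9 FPKM in PPM1G shRNA and 38.0, 39.9 and 42.0 FPKM in control libraries. Every PPM1G shRNA library exceeded every control library, and SLC25A1 rose by 0.36 (SE 0.04, adjusted p = 2.3e-09). RefSeq lists 5 pseudogenes named after SLC25A1, 5 after SLC25A15, 4 after SLC25A51 and 3 after SLC25A3. Fewer are listed for some other carriers. SLC25A11, the oxoglutarate-malate carrier, fell by 0.29 (SE 0.04, adjusted p = 2.0e-07), and SLC25A21, an oxodicarboxylate carrier at under 1 FPKM, fell by 0.76 (SE 0.20, adjusted p = 0.0010).

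The makeup of this group therefore shifted. SLC25A10 made up 4.22 ± 0.18% of the summed FPKM of the 4 carriers in PPM1G shRNA and 21.1 ± 1.0% in control libraries (SD, n = 3). SLC25A1 made up 57.3 ± 1.1% in PPM1G shRNA and 38.4 ± 1.1% in control libraries, and SLC25A11 made up 38.2 ± 1.3% in PPM1G shRNA and 40.05 ± 0.33% in control libraries. Such a share does not depend on the scaling between libraries. Over the 37 shares compared in 10 substrate groups, 27 had libraries that did not overlap. In TMM-scaled counts of single genes, the libraries were apart for 83.7% of all genes tested. Shares within a group also depend on each other, so the 37 are not independent. The exact two-sided permutation test with 3 libraries against 3 cannot go below p = 0.10, which these 27 reached, with a Benjamini-Hochberg value of 0.137.

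Among the aspartate and glutamate carriers, SLC25A12 and SLC25A13 take part in the malate-aspartate shuttle. The shuttle brings reducing equivalents of cytosolic NADH into the matrix. SLC25A13 (citrin) was the most abundant of the group, with 50.4, 53.9 and 53.1 FPKM in PPM1G shRNA and 57.5, 59.0 and 55.9 FPKM in control libraries. The groups were apart by a narrow margin and the fall was 0.23 on the log2 scale (SE 0.03, adjusted p = 1.3e-07). Its paralog SLC25A12 (aralar) was not called (-0.07 ± 0.07 SE), nor was the glutamate carrier SLC25A22 (-0.02 ± 0.05 SE), and the libraries of both overlapped. With plain library totals both values lay above 0 and were not called either.

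The enzymes of this shuttle (GOT1, GOT2, MDH1 and MDH2) showed larger changes. They were part of a longer list that also held GPD1, GPD2, CS and ACLY. Of the 8 genes in the list of shuttle and citrate enzymes, 7 were tested, of which 6 fell and 0 rose, against 41.3% falling and 41.5% rising of all genes tested (median log2 fold change -0.69; 0.01 over all genes tested). MDH1, the cytosolic malate dehydrogenase, had 30.5, 32.4 and 29.8 FPKM in PPM1G shRNA and 78.5, 83.5 and 86.0 FPKM in control libraries and fell by 1.52 (SE 0.04). The mitochondrial and cytosolic aspartate transaminase genes GOT2 and GOT1 fell by 1.15 (SE 0.03, adjusted p = 8.9e-25) and 0.79 (SE 0.04, adjusted p = 1.2e-17). In all of these the groups were apart, whereas the shuttle's carriers SLC25A11, SLC25A12 and SLC25A13 lay between -0.07 and -0.29. The difference between carriers and enzymes was not tested.

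**Figure D4:**
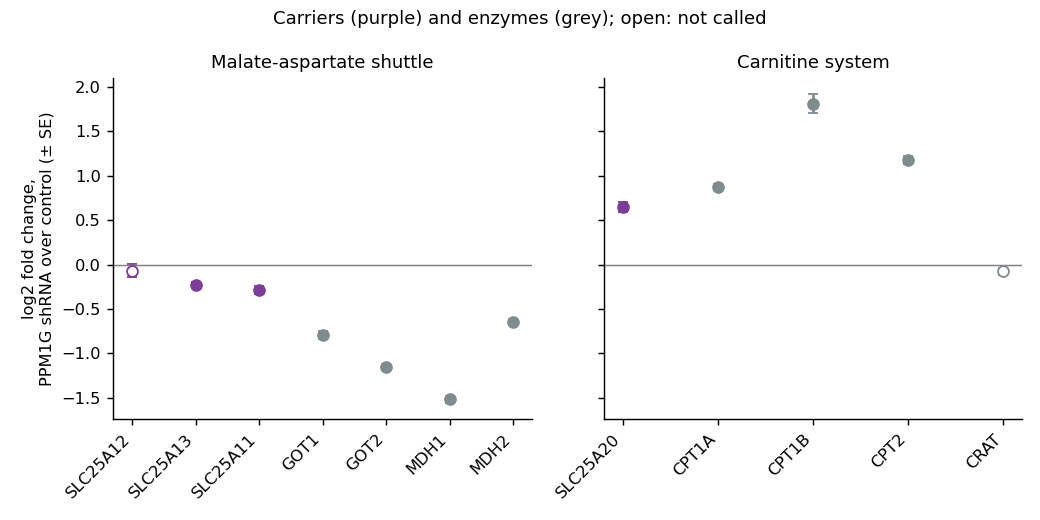
Log2 fold changes (PPM1G shRNA over control, ± SE, n = 3 each) of carriers in purple and enzymes in grey for the malate-aspartate shuttle (left) and the carnitine system (right); open points were not called. The shuttle carriers lie between -0.07 and -0.29 and its enzymes between -0.65 and -1.52, while SLC25A20 lies at 0.65 beside CPT1A at 0.88, CPT2 at 1.18 and CPT1B at 1.81.

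Of 4 tested carriers of other amino acids, 2 rose and 2 fell, against 41.5% and 41.3% of all genes tested. SLC25A29, which carries basic amino acids, had 17.1, 16.4 and 17.3 FPKM in PPM1G shRNA and 11.2, 11.2 and 11.1 FPKM in control libraries, and rose by 0.50 on the log2 scale (SE 0.04, adjusted p = 1.9e-12). Its RefSeq gene overlaps YY1. SLC25A38, which brings glycine into mitochondria for heme synthesis, averaged 14.7 ± 0.77 FPKM in PPM1G shRNA and 9.96 ± 0.24 FPKM in control libraries (SD, n = 3) and rose by 0.46 (SE 0.05). SLC25A15, the ornithine-citrulline carrier of the urea cycle, averaged 1.84 ± 0.11 FPKM in PPM1G shRNA and 2.42 ± 0.049 FPKM in control libraries and fell by 0.50 (SE 0.10). SLC25A44, a carrier of branched-chain amino acids, averaged 6.21 ± 0.099 FPKM in PPM1G shRNA and 7.27 ± 0.26 FPKM in control libraries and fell by 0.33 (SE 0.05). For each of these 4 genes the PPM1G shRNA and control libraries did not overlap. Their adjusted p-values lay between 1.9e-12 for SLC25A29 and 5.5e-05 for SLC25A15.

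Of 9 tested carriers of coenzymes and nucleotides, 3 rose and 3 fell, against 41.5% and 41.3% of all genes tested. The other 3 were not called, and none of the 9 changed by 1.5-fold. SLC25A36, a pyrimidine nucleotide carrier and the most abundant in PPM1G shRNA libraries, had 24.6, 25.3 and 25.4 FPKM there and 20.4, 18.7 and 18.3 FPKM in control libraries. The groups were apart and it rose by 0.29 (SE 0.04, adjusted p = 4.9e-08). SLC25A16, linked to coenzyme A supply, rose by 0.22 (SE 0.05), and the S-adenosylmethionine carrier SLC25A26 rose by 0.28 (SE 0.11, adjusted p = 0.028). The call of SLC25A26 was lost with DESeq2 (adjusted p = 0.070) and without PPM1G shRNA library 1 or 2 or control library 2 or 3 (edgeR adjusted p from 0.062 to 0.119). The coenzyme A carrier SLC25A42 fell by 0.33 (SE 0.07). SLC25A32, a folate and FAD carrier, fell by 0.11 (SE 0.05, adjusted p = 0.022), but its FPKM values overlapped and it was not called with plain library totals. The pyrimidine nucleotide carrier SLC25A33 (0.22 ± 0.10 SE, adjusted p = 0.051), the peroxisomal SLC25A17 (0.06 ± 0.07) and the NAD carrier SLC25A51 (-0.03 ± 0.10) were not called. SLC25A33 was called as higher with plain library totals (edgeR adjusted p = 0.0053), with limma on log2 FPKM (adjusted p = 0.0024 with a pseudocount of 1), with the CPM filter (edgeR adjusted p = 0.041), and without PPM1G shRNA library 3 or control library 1. SLC25A17 was called as higher with plain library totals (edgeR adjusted p = 0.044) and with limma (adjusted p = 0.020 with a pseudocount of 1).

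The E-box CACGTG was in an upstream stretch of 7 of the 39 carriers (17.9%) and in 7.73% of all genes with a stretch. By call it was in 4 of the 12 carriers that rose and had a stretch, and in 1 of the 15 that fell. The share by call was not computed over all genes, so this split has no background to be read against. The 4 were SLC25A26, SLC25A36, SLC25A38 and SLC25A46, the 1 was SLC25A13, and SLC25A33 and SLC25A51 were not called. The stretches of SLC25A36 (chr3:140941586-140941835, plus strand) and SLC25A38 (chr3:39383120-39383369, plus strand) on GRCh38.p14 are shown, 5′ to 3′. Capitals mark the E-box and, in SLC25A36, a CCAAT box. Both were picked among the carriers that rose for holding an E-box. Its presence in them is thus no contrast with SLC25A4 and SLC25A5 above.
SLC25A36: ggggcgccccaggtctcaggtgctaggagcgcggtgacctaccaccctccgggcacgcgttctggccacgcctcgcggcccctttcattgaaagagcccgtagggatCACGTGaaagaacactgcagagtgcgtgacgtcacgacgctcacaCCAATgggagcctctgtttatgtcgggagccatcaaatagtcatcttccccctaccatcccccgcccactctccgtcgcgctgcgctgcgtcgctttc
SLC25A38: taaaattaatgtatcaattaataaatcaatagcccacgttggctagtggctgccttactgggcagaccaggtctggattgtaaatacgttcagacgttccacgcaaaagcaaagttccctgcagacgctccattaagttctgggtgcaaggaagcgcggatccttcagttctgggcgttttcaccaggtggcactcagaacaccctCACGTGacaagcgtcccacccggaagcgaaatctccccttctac
Their GC content is 62.8% for SLC25A36 and 49.6% for SLC25A38, below that of SLC25A4 and SLC25A5, a comparison of selected stretches only. The motifs were chosen with the fold changes known, and no test was made of the counts.

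The carnitine-acylcarnitine carrier rose, as did CPT1A, CPT1B and CPT2. SLC25A20 moves acylcarnitines into the matrix for fatty acid oxidation. It had 23.9, 23.2 and 21.9 FPKM in PPM1G shRNA and 13.2, 13.3 and 14.6 FPKM in control libraries, without overlap. The rise was 0.65 on the log2 scale (SE 0.06, adjusted p = 9.8e-12). Of the 5 carnitine transferase genes tested, 3 rose and 0 fell, against 41.5% rising and 41.3% falling of all genes tested (median 0.88). CPT2, the transferase on the matrix side, had 38.5, 35.9 and 37.4 FPKM in PPM1G shRNA and 15.8, 15.2 and 15.1 FPKM in control libraries and rose by 1.18 (SE 0.04). The outer membrane transferase genes CPT1A and CPT1B rose by 0.88 (SE 0.03, adjusted p = 9.2e-24) and 1.81 (SE 0.11, adjusted p = 2.3e-16), whereas CRAT (-0.08 ± 0.04 SE) and CPT1C (0.07 ± 0.33 SE) were not called.

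Iron and glutathione carriers changed by less than 1.5-fold. SLC25A28 (mitoferrin 2), which imports iron, had 7.72, 8.09 and 7.56 FPKM in PPM1G shRNA and 5.65, 5.88 and 5.605 FPKM in control libraries and rose by 0.35 (SE 0.05, adjusted p = 5.9e-07). SLC25A37 (mitoferrin 1) had 10.9, 9.99 and 11.9 FPKM in PPM1G shRNA and 9.46, 8.73 and 9.47 FPKM in control libraries. Its TMM-scaled counts overlapped, and it rose by 0.15 (SE 0.07, adjusted p = 0.045). The call was lost with median-of-ratios factors (edgeR adjusted p = 0.050) and with the DESeq2 Wald test (adjusted p = 0.104). SLC25A39 had 129, 127 and 131 FPKM in PPM1G shRNA and 124, 125 and 134 FPKM in control libraries, which overlapped. It fell by 0.09 with TMM factors (SE 0.03, adjusted p = 0.016) and stood at 0.01 with plain totals, so its direction depended on the scaling. Its paralog SLC25A40 had 5.995, 6.14 and 6.20 FPKM in PPM1G shRNA and 6.84, 7.46 and 6.95 FPKM in control libraries, without overlap, and fell by 0.31 (SE 0.06, adjusted p = 3.4e-05). Among 11 genes listed as iron-sulfur and heme partners, 4 rose and 6 fell, against 41.5% and 41.3% of all genes tested (median -0.26). The iron-sulfur assembly gene LYRM4 fell by 0.85 (SE 0.08), and the ferredoxin gene FDX2 rose by 0.86 (SE 0.07).

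The uncoupling protein-like carriers are named for their similarity to UCP1, the proton carrier of brown fat. SLC25A27 (UCP4) had 13.0, 11.98 and 13.2 FPKM in PPM1G shRNA and 6.69, 6.97 and 7.69 FPKM in control libraries and rose by 0.74 on the log2 scale (SE 0.06, adjusted p = 3.1e-12), with no overlap. SLC25A14 (UCP5) rose by 0.36 (SE 0.10), to 2.59 ± 0.26 FPKM in PPM1G shRNA, against 1.88 ± 0.19 FPKM in control libraries. SLC25A30 fell by 0.49 (SE 0.13), to 1.16 ± 0.22 FPKM in PPM1G shRNA, against 1.52 ± 0.17 FPKM in control libraries (SD, n = 3 each). UCP2, a family member with another symbol, fell by 0.81 (SE 0.06), to 11.5 ± 0.086 FPKM in PPM1G shRNA, against 18.9 ± 1.9 FPKM in control libraries. Of the 5 relatives with other symbols, 4 were tested, of which 3 fell and 0 rose, against 41.3% and 41.5% of all genes tested. MTCH2, an outer membrane insertase, fell by 0.91 (SE 0.05), and its paralog MTCH1 fell by 0.09 (SE 0.03) with TMM factors but stood at 0.01 with plain totals.

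Of 8 carriers whose substrate was not assigned, 5 were tested, of which 3 rose and 2 fell, against 41.5% and 41.3% of all genes tested. SLC25A45 had 3.60, 3.91 and 4.47 FPKM in PPM1G shRNA and 1.599, 1.13 and 1.20 FPKM in control libraries. Its groups were apart and it rose by 1.51 on the log2 scale (SE 0.12, adjusted p = 8.3e-13), the largest rise of any carrier tested. SLC25A46, an outer membrane protein linked to mitochondrial fission, had 18.5, 18.9 and 18.3 FPKM in PPM1G shRNA and 10.7, 11.2 and 10.1 FPKM in control libraries and rose by 0.70 (SE 0.04, adjusted p = 1.1e-15). SLC25A43 rose by 0.66 (SE 0.05), to 16.9 ± 0.42 FPKM in PPM1G shRNA, against 9.96 ± 0.34 FPKM in control libraries. SLC25A43 and SLC25A5, which fell, are neighbours on chromosome X with 13965 bases between them in RefSeq. SLC25A35 fell by 0.91 (SE 0.08), to 3.42 ± 0.47 FPKM in PPM1G shRNA, against 5.97 ± 0.19 FPKM in control libraries. SLC25A53 had 31, 39 and 41 counts in PPM1G shRNA and 84, 67 and 67 counts in control libraries and fell by 1.02 (SE 0.25). SLC25A35, SLC25A45, SLC25A46 and SLC25A53 each overlap a protein-coding RefSeq gene (RANGRF, FRMD8, TMEM232 and ZCCHC18, in that order), and no strand setting is given.

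Of 13 genes for carrier import, 9 fell and 1 rose, against 41.3% falling and 41.5% rising of all genes tested (median -0.35). AGK, a subunit of the TIM22 insertase, fell by 0.93 (SE 0.07), to 1.75 ± 0.14 FPKM in PPM1G shRNA, against 3.11 ± 0.31 FPKM in control libraries. The chaperone gene TIMM10 fell by 0.71 (SE 0.08) and the TIM22 subunit gene TIMM29 by 0.68 (SE 0.09). All 3 outer membrane channel genes fell, read against the same shares. VDAC1 had 34.1, 36.9 and 33.8 FPKM in PPM1G shRNA and 82.3, 87.4 and 84.7 FPKM in control libraries and fell by 1.38 (SE 0.04, adjusted p = 1.1e-25), and VDAC3 and VDAC2 had log2 fold changes of -0.71 and -0.43. Of 18 other inner membrane transporter genes, 5 rose and 8 fell, against 41.5% and 41.3% of all genes tested (median -0.11). The largest changes were falls of ABCB8 by 1.18 (SE 0.06), of SFXN2 by 1.04 (SE 0.14) and of the serine transporter gene SFXN1 by 0.87 (SE 0.04).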

How the data were processed

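Per the labels' protocols, total RNA was extracted on Qiagen columns and sequenced from SMARTER mRNA-Seq libraries. GRCh38 was used, per the submitters' processing notes; no source used here names an aligner, counter, annotation or strand setting. The authors deposited raw counts per gene and FPKM values for 17534 genes; each deposited FPKM equals the count over 1 length per gene and the library total, within a relative spread of 4.2e-07.

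Counts were fitted with edgeR 4.0.16 in R 4.3.3: filter at a minimum of 10 counts, TMM factors, robust quasi-likelihood F-test on group alone, over 13060 genes, with Benjamini-Hochberg adjustment at 0.05 and the fit tested on simulated data. Each SE was computed as the size of the log2 fold change divided by the root of F. Log2 fold changes are PPM1G shRNA over control. Alternatives used DESeq2 1.42.0, limma 3.58.1 on log2(FPKM + 1) or log2(FPKM + 0.1), other scalings and filters, a replicate block, and omission of each library. Nothing in the labels ties the libraries to separate cultures. The p-values therefore cover the spread among these samples, which may be technical. Within groups, chi-square per degree of freedom between library counts was 6.44 and 5.88 for control library 3 with control libraries 1 and 2. The other pairs lay between 2.69 and 3.24. Levels are relative within a library, so a change in RNA per cell would not be seen. The RefSeq and GENCODE tables gave positions and sequences on GRCh38; 44 of 50 carrier promoter windows continued into a GENCODE transcript of their gene.

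The carriers, substrate groups and lists were chosen with earlier results of these data known. Full values were given for the most abundant carrier of each substrate group. The same was done for the carrier with the largest called change per group at a mean log2 CPM of at least 1. It was also done for each carrier past 2-fold at that level. From each list, up to 3 called genes with the largest change were named, some with fewer values. Other carriers and genes are named for completeness. Some results, among them 1 carrier, are not reported here.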

Additional observations from a re-analysis of the deposited data

How the results depend on the processing

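Between the alternatives, 13 to 17 carriers rose and 16 to 20 fell, against 15 and 19. Of the 34 called carriers, 31 to 34 were called with the same sign under each alternative. Plain library totals moved the median log2 fold change of all genes to 0.12, against 0.01 with TMM factors, and small values changed sign. With plain totals, log2(FPKM + 1) and log2(FPKM + 0.1), in that order, the log2 fold change was 0.029, 0.025 and 0.029 for SLC25A12, 0.080, 0.074 and 0.080 for SLC25A22, 0.019, 0.014 and 0.016 for SLC25A25, 0.012, 0.013 and 0.013 for SLC25A39, 0.071, 0.064 and 0.071 for SLC25A51, and 0.0091, 0.0097 and 0.0098 for MTCH1, none of them called. With 1 library left out, SLC25A22 ranged from -0.051 to 0.0025 and SLC25A51 from -0.066 to 0.024. As shares of summed counts, SLC25A24 differed by 0.48 percentage points and SLC25A17 by -0.21, against -0.02 and 0.10 as shares of FPKM; with 1 library left out these ranged from -0.47 to 0.40 and from -0.27 to 0.29. The cause was not tested. Leaving out 1 library also ended the calls of SLC25A32 (PPM1G shRNA library 1 or 3 or control library 1), SLC25A37 (PPM1G shRNA library 1 or 3 or control library 2) and SLC25A39 (PPM1G shRNA library 2 or control library 3), and of SLC25A26 as given above. Same-numbered libraries did not deviate together (correlations of 0.014, -0.020 and 0.0036), and with the replicate block 15 carriers rose and 19 fell, the same 34 carriers as without it. Counts limit SLC25A41 and SLC25A53 and the 7 untested rows.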
